A study of Mus musculus with 2 samples.

Results

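The wound-induced keratin genes Krt6a, Krt6b, Krt16 and Krt17 were followed across 2 spatial sections of calvarial (skull roof) bone of mice. They were chosen by symbol, and all 4 were found among the 31053 genes of each section. The choice was made with earlier results of these data known, so counts of members against all genes describe them and test nothing. Keratins are the intermediate filament proteins of epithelial cells, and each filament pairs a type II with a type I keratin. Krt6a and Krt6b encode type II keratins, and Krt16 and Krt17 encode type I keratins. Resting interfollicular epidermis has little of any of them. Keratinocytes at a wound edge switch them on within hours of injury, and they are also made in hair follicles, nails and other skin appendages, where Krt17 is a standing keratin of the outer root sheath. Krt5 and Krt14 form the filaments of basal keratinocytes, and Krt1 and Krt10 replace them as the cells leave the basal layer.

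Both sections came from mouse skulls in which a bone defect had been made, and both were collected at day 7. The Blank defect received no collagen/nHA material. The Col_nHA defect was implanted with it. The labels used here give no strain, age or sex, and no number of animals, and each group held 1 section. No difference between the groups therefore has a replicate check, no p-value is given, and every ratio compares these 2 sections rather than the 2 treatments. Intervals in parentheses are 95% intervals that cover counting error only. Values are unique molecular identifiers (UMIs), each standing for 1 captured transcript, and CPM scales the UMIs of a gene to 1000000 UMIs of the spots in question. They count transcripts and were not divided by gene length.

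Barcodes with at least 3667 UMIs in Blank and 4690 in Col_nHA were taken as spots over tissue. This left 2249 spots with a median of 9733 UMIs in Blank and 2471 spots with a median of 13815 UMIs in Col_nHA. A spot is a small area that can hold several cells, so fewer cells of a type and less RNA per cell cannot be told apart. The totals did not part cleanly at the minimum, and 265 Blank and 215 Col_nHA barcodes lay within 10% of it. All 4992 barcodes were shared by both sections, and 1345 were spots in both. The 7 osteoblast markers, a check of the labelled tissue, summed to 1026 CPM in Blank and 623 in Col_nHA. Bglap (578 and 233 CPM) and Bglap2 (248 and 107 CPM) were lower in Col_nHA and Ibsp (88.2 and 174 CPM) higher. Alpl, Sp7, Dmp1 and Runx2 had ratios of 0.952 to 1.04, and the median log2 ratio of the list was -0.04. Other tissues differed, with choroid plexus markers at 11909 CPM in Blank and 20.3 in Col_nHA. The part of this in any keratin value was not tested.

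On mouse genome build GRCm38.p6 the type II members were neighbours on chromosome 15 and the type I members were neighbours on chromosome 11. Krt6b (ENSMUSG00000023041) lies at chr15:101676023-101680293 and Krt6a (ENSMUSG00000058354) at chr15:101689928-101694305, with 9634 bases and no annotated gene between them. The basal keratin gene Krt5 follows 12763 bases after Krt6a. Krt16 (ENSMUSG00000053797) lies at chr11:100246091-100248902 and Krt17 (ENSMUSG00000035557) at chr11:100256215-100261029, with 7312 bases and no annotated gene between them. Krt6a and Krt6b encode nearly identical proteins, and the sources used here do not give how reads that match both were assigned, so the split between them is uncertain.

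All 4 members were more abundant in the Col_nHA section. Together they held 4178 UMIs, or 0.0136% of the UMIs of the spots, in Blank and 36245 UMIs, or 0.0902%, in Col_nHA. Krt6b, the less abundant type II gene, stood furthest apart: it had 113 UMIs in Blank, 3.68 CPM (3.03 to 4.42), and 8397 UMIs in Col_nHA, 209 CPM (204 to 213). This is a Col_nHA over Blank ratio of 56.8 (47.1 to 69.0). Krt6a had 1073 UMIs in Blank, 34.9 CPM (32.9 to 37.1), and 14239 UMIs in Col_nHA, 354 CPM (348 to 360), a ratio of 10.1 (9.53 to 10.8).

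The type I members differed less between the sections. Krt16, the usual partner of Krt6a in activated epidermis, had 1085 UMIs in Blank, 35.3 CPM (33.3 to 37.5), and 7891 UMIs in Col_nHA, 196 CPM (192 to 201), a ratio of 5.55 (5.21 to 5.92). Krt17 had 1907 UMIs in Blank, 62.1 CPM (59.3 to 65.0), and 5718 UMIs in Col_nHA, 142 CPM (139 to 146), a ratio of 2.29 (2.17 to 2.41). Averaged over spots rather than summed, the Krt17 ratio was 1.68 and so under 2-fold. The CPM intervals did not overlap between the sections for any of the 4 genes. They cover counting error only, and those of Krt14 did not overlap either, at 471 to 486 and 534 to 549 CPM. The share of all genes with such intervals is not given here. The background was the 9855 genes that reached 10 CPM in either section. Of these, 1.83% were higher in Col_nHA by 2-fold or more and 3.4% lower by as much, and 4 of 4 members were among the higher ones. Krt6b reached 10 CPM in Col_nHA only, so it could enter the background only by being higher. Of the 9045 genes with 10 CPM in each section, 1.15% were higher and 1.33% lower by 2-fold, and the other 3 members were among the higher. By ratio Krt6b was number 3 of the 9855, Krt6a number 9, Krt16 number 20 and Krt17 number 111. The basal keratins did not follow them. Krt5 had 322 CPM in Blank and 238 in Col_nHA, a ratio of 0.738, and Krt14 at 479 and 541 CPM, a ratio of 1.13.

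**Figure D1:**
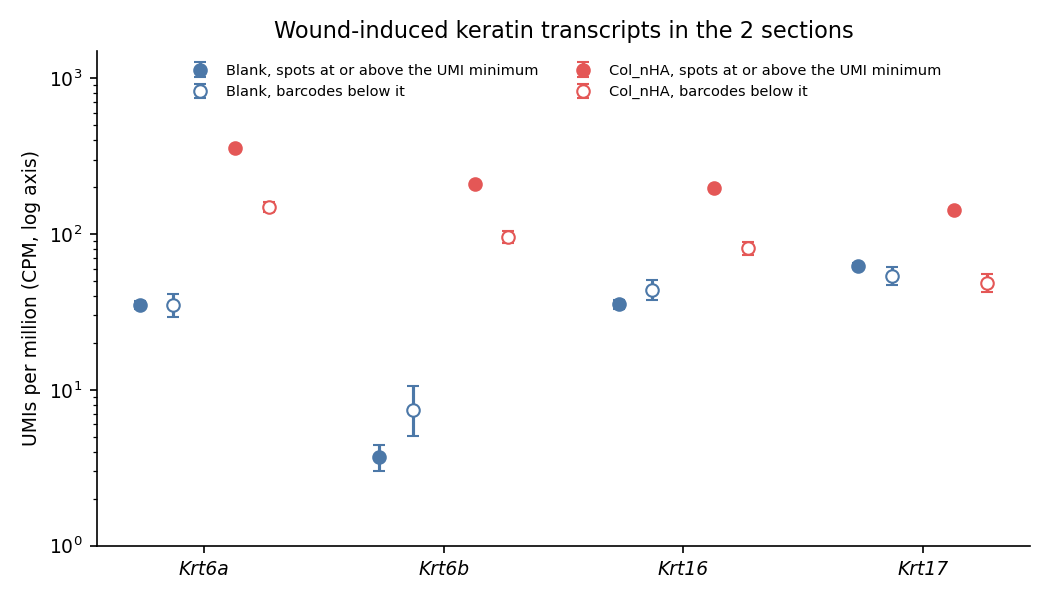
CPM of each member on a log axis, in the spots at or above the UMI minimum (filled) and in the barcodes below it (open) of the Blank (blue) and Col_nHA (red) sections, with exact 95% Poisson intervals of 1 section each. The filled red points, from 142 CPM for Krt17 to 354 CPM for Krt6a, lie above the filled blue points for all 4 genes.

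The members also took another place within the keratin family. The 53 keratin genes measured summed to 2211 CPM in Blank and to 1792 in Col_nHA. The members made up 6.15% of those keratin UMIs in Blank and 50.3% in Col_nHA. In Blank the most abundant keratins were Krt14, Krt10, Krt5, Krt77 and Krt1, the last 4 of them between 255 and 407 CPM. In Col_nHA only Krt14 was more abundant than Krt6a.

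Transcripts outside cells can give UMIs in spots that do not express a gene, so the spots were set against the barcodes below the minimum. In Blank those barcodes held 34.8 CPM of Krt6a, 7.45 CPM of Krt6b, 43.7 CPM of Krt16 and 53.8 CPM of Krt17, against 34.9, 3.68, 35.3 and 62.1 CPM in spots. In Col_nHA they were below the spots' levels, at 149, 95.4, 81.0 and 48.6 CPM in the same order. Averaged over the section, then, the Blank level of Krt6a, Krt6b and Krt16 was not above that of these barcodes, whereas in Col_nHA all 4 members were. The Blank intervals of Krt17 overlapped, at 59.3 to 65.0 CPM in spots and 47.0 to 61.3 below the minimum. In Blank, Krt5 and Krt14 were also higher below the minimum, at 384 and 541 CPM against 322 and 479 in spots. In Col_nHA they were lower there, at 113 and 228 CPM against 238 and 541. Whether these barcodes held free transcripts or epidermis with few UMIs was not tested.

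The share of spots with a UMI depended on depth and was compared after each spot was thinned to 2000 UMIs. The Krt6a share was then 6.45% (5.47 to 7.54) in Blank and 13.9% (12.6 to 15.3) in Col_nHA, and that of Krt6b 1.20% and 9.71%. Krt16 was seen in 5.20% and 10.9%. Krt17 was the exception, at 10.6% (9.38 to 12.0) in Blank and 9.43% (8.31 to 10.7) in Col_nHA, intervals that overlap although its level was higher in Col_nHA. Without thinning the shares in Blank were 15.8%, 2.93%, 11.9% and 23.5% for Krt6a, Krt6b, Krt16 and Krt17, and in Col_nHA 37.6%, 26.6%, 31.7% and 22.4%. At 500 UMIs, the depth at which spots could be set against barcodes below the minimum, the Blank shares were 2.09%, 0.178%, 2.13% and 3.73% in spots and 1.53%, 0.196%, 1.49% and 1.76% below it. In Col_nHA they were 7.77%, 5.02%, 5.83% and 4.33% in spots and 7.19%, 4.88%, 3.38% and 2.74% below it. The intervals of spots and of barcodes below the minimum overlapped for Krt6a, Krt6b and Krt16 in Blank and for Krt6a and Krt6b in Col_nHA. Those shares were thus near those of barcodes below the minimum, and most spots with 1 or 2 UMIs of them cannot be read as expressing the genes. The Krt14 shares were near too, at 15.7% and 14.2% in Blank and 9.43% and 10.2% in Col_nHA. The comparison therefore cannot separate free transcripts from epidermis with few UMIs.

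The UMIs were gathered in few spots. In Col_nHA 268 of 2471 spots (10.8%) held a UMI of all 4 members, and those spots held 92.5% of the members' UMIs. In Blank 44 of 2249 spots (1.96%) held all 4, with 34.9% of the members' UMIs. No member was seen in 1535 Blank spots (68.3%) and in 993 Col_nHA spots (40.2%). Krt6a reached 50% of its UMIs within 44 spots in Blank and 21 in Col_nHA, and Krt17 within 64 and 18. Krt17 was thus the most spread member in Blank and as gathered as the others in Col_nHA. The highest single spots held 49 UMIs of Krt6a, 6 of Krt6b, 77 of Krt16 and 56 of Krt17 in Blank, against 938, 565, 546 and 420 in Col_nHA.

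Spots of both sections were then grouped by their transcripts into 18 regions, with the 4 members left out of the genes used, and the regions are named by number and leading genes. In Col_nHA the members were gathered in region 10, 218 spots led by Sprr2a3, Stfa1 and Stfa3, which encode a cornified envelope precursor and stefin A protease inhibitors. It held 90.0% of the Krt6a, 90.4% of the Krt6b, 86.6% of the Krt16 and 89.9% of the Krt17 UMIs of the section. Their levels there were 4629 CPM (4549 to 4709) for Krt6a, 2742 CPM for Krt6b, 2468 CPM for Krt16 and 1857 CPM for Krt17. Over its spots Krt6a ranged from 0 to 239 UMIs per 10000 with a median of 16.8, and Krt17 from 0 to 107 with a median of 5.75. No Blank spot fell in region 10. A region held by 1 section may reflect that library as well as a kind of tissue.

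In Blank the members were split between regions 12 and 11, which held 56.7% and 28.9% of their UMIs. With a coarser grouping, at resolution 0.3, 1 region held 86.8%. Region 12, 211 Blank spots and no Col_nHA spot, was led by Lor, the main protein of the cornified envelope, and by Lce genes of the late envelope. Region 11, 209 Blank and 4 Col_nHA spots, was led by Defb8, Rarres1 and Fa2h, and its sebaceous gland genes summed to 7140 CPM, against 2653 CPM in region 12 and 274 CPM in region 10. Krt6a stood at 458 CPM (425 to 493) in region 12 and 101 CPM (88.7 to 115) in region 11, and Krt6b at 56.9 and 4.41 CPM. Krt16 stood at 552 CPM (516 to 590) in region 12 and 48.9 CPM (40.3 to 58.9) in region 11. Krt17 alone had intervals that overlapped between them, at 429 CPM (397 to 463) in region 12 and 378 CPM (353 to 404) in region 11. All 4 members were above the level of the Blank barcodes below the minimum in region 12. In region 11 Krt6a and Krt17 were above it, and the intervals of Krt6b and Krt16 overlapped with it. Those of Krt6b were 2.11 to 8.11 CPM in region 11 and 5.06 to 10.6 CPM below the minimum. Region 12 held 80.6% of the Krt16 UMIs of the section but 35.6% of the Krt17 UMIs, and region 11 held 10.2% and 44.9%.

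**Figure D2:**
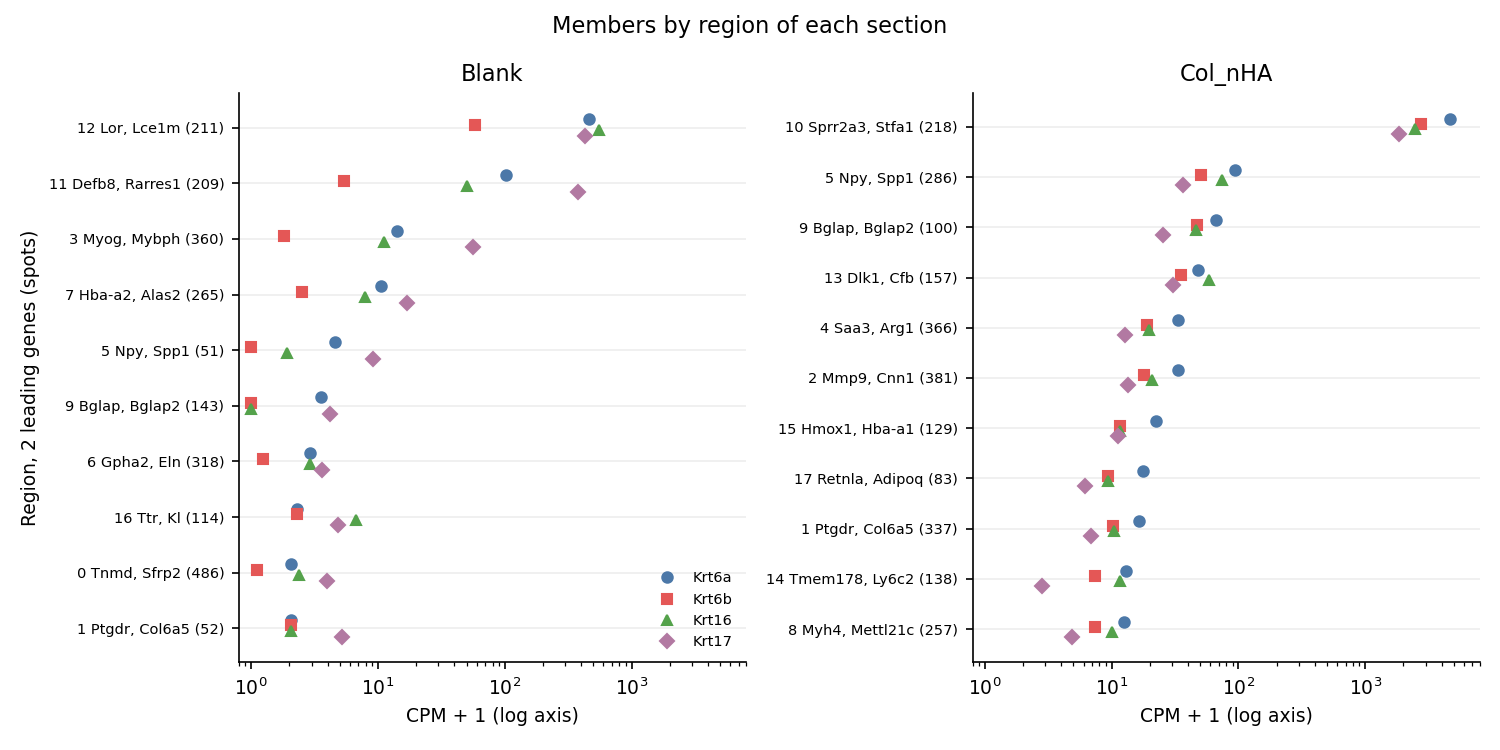
CPM + 1 of each member on a log axis in every region with at least 50 spots of that section, with the region's number, 2 leading genes and spots, ordered by Krt6a. Region 10 in Col_nHA stands at 1857 to 4629 CPM, and in Blank only regions 12 and 11 reach 100 CPM of any member.

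The difference between Krt16 and Krt17 in Blank was plain in single spots. In region 11 Krt17 was seen in 148 of 209 spots and Krt16 in 43. In region 12 Krt17 was seen in 173 of 211 spots and Krt16 in 134. Of the UMIs of both type I genes, Krt16 held 11.5% (9.53 to 13.6) in region 11, 56.3% (53.8 to 58.8) in region 12 and 57.1% (56.2 to 57.9) in region 10 of Col_nHA. The intervals of regions 12 and 10 overlapped, and region 11 stood apart from both. In the 26 Blank spots with at least 20 UMIs of both genes together the Krt16 share ran from 0% to 88.9% with a median of 32.5%. In the 97 such Col_nHA spots it ran from 9.09% to 86.5% with a median of 58.1%.

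**Figure D3:**
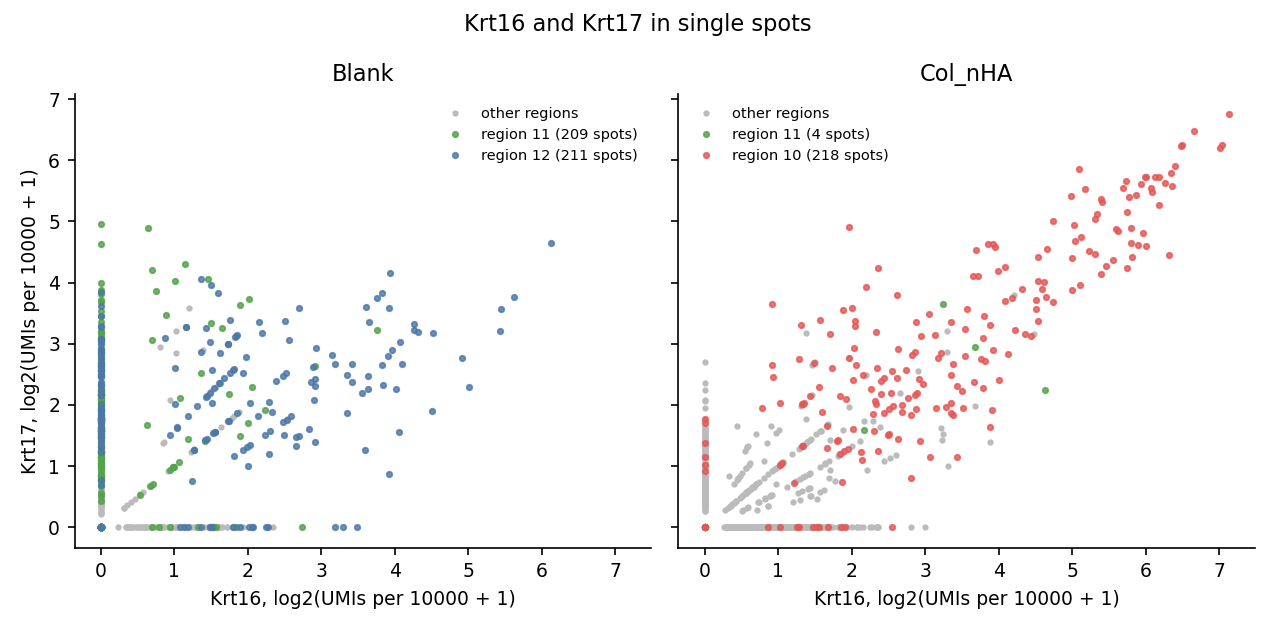
Krt16 against Krt17 in each spot, as log2(UMIs per 10000 + 1), for Blank (left) and Col_nHA (right), with region 11 in green, region 12 in blue, region 10 in red and other regions in grey. Many region 11 spots lie on the vertical axis, with Krt17 and no Krt16 UMI, whereas region 10 spots lie along a diagonal.

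Markers of hair follicle and sebaceous gland moved with region 11, where Krt17 was high without Krt16. Genes of the inner root sheath and companion layer summed to 195 CPM in region 11, 112 CPM in region 12 and 13.7 CPM in region 10, from 7 of the 9 measured members in each. Hair shaft keratins summed to 34.8, 10.1 and 1.81 CPM, with 4, 3 and 4 of 11 members seen, and hair follicle regulators to 229, 155 and 66.5 CPM. Across the 2249 Blank spots the summed sebaceous genes had a Pearson r of 0.61 with Krt17 and 0.36 with Krt16, and the inner root sheath genes 0.41 and 0.12. This order was not particular to appendage genes. Basal keratins had 0.70 with Krt17 and 0.52 with Krt16, and desmosome genes 0.67 and 0.51. These correlations describe spots that share a library and differ in depth. Keratins of simple epithelia (Krt7, Krt8, Krt18 and Krt19) summed to at most 14.4 CPM in these 3 regions, and those of internal mucosa (Krt4 and Krt13) to at most 0.882 CPM.

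The makeup of the members also differed between type II genes. Krt6b held 9.53% (7.92 to 11.3) of the Krt6a and Krt6b UMIs in Blank and 37.1% (36.5 to 37.7) in Col_nHA. In Blank the Krt6b share was 11.04% (8.97 to 13.4) in region 12. In region 11 it rested on 10 Krt6b UMIs at a level not above that of the barcodes below the minimum, and it is not read. In Col_nHA it was 37.2% in region 10. Among spots with at least 20 UMIs of both genes, 8 Blank spots had Krt6b shares of 3.92% to 27.3%, with a median of 12.7%, and 146 Col_nHA spots had shares of 0% to 61.5%, with a median of 38.6%, so single spots overlapped. Type II transcripts made up 28.4% of the members' UMIs in Blank and 62.5% in Col_nHA, with 34.4% in region 12, 19.9% in region 11 and 63.0% in region 10.

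**Figure D4:**
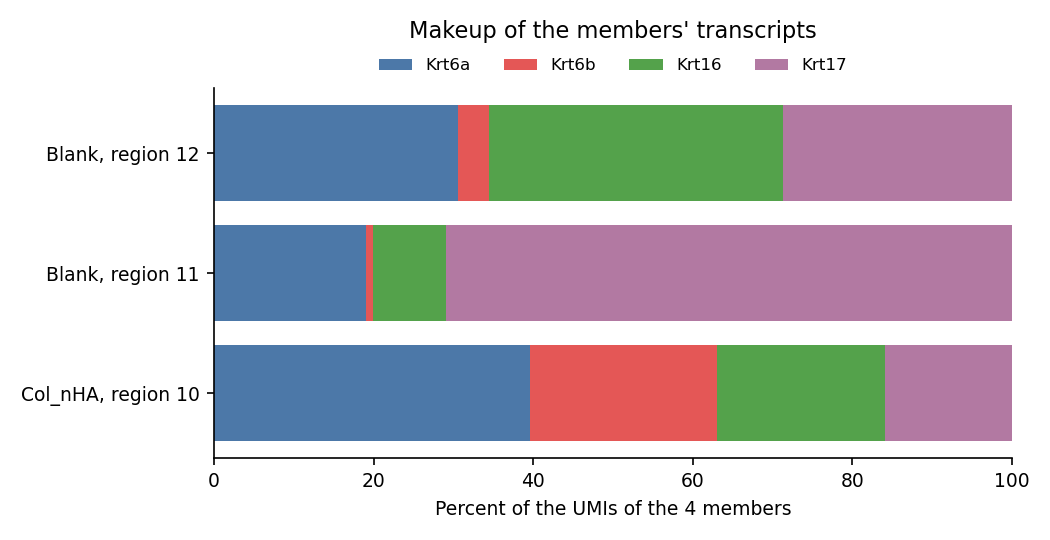
Percent of the members' UMIs that each of the 4 genes held in regions 12 and 11 of Blank and region 10 of Col_nHA. Krt17 held 70.9% in region 11, and Krt6b held 3.80% in region 12 and 23.4% in region 10.

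Outside these regions the members were low in both sections. In the 8 other Blank regions with at least 50 spots Krt6a ran from 1.05 to 13.0 CPM, Krt6b from 0 to 1.52 CPM, Krt16 from 0 to 10.1 CPM and Krt17 from 2.63 to 54.8 CPM. The highest Krt17 value was that of region 3, led by the muscle genes Myog and Mybph, which also held 365 CPM of Krt5 and Krt14. In the 10 other Col_nHA regions Krt6a ran from 11.6 to 92.3 CPM, Krt6b from 6.33 to 49.98 CPM, Krt16 from 8.30 to 72.6 CPM and Krt17 from 1.84 to 35.6 CPM. All 4 were highest there in region 5, led by Npy and Spp1, but none of them reached the level of the barcodes below the minimum. Of the 4 genes and 18 section regions, only Krt17 in region 3 of Blank had a value over that level. It was 54.8 CPM (48.4 to 61.8) against 53.8 CPM (47.0 to 61.3), and the intervals overlapped.

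The low Col_nHA values had the balance of region 10 for some proportions and not for others. The Krt6b share of both type II genes ran from 33.3% to 41.8% over the 10 other regions, and was 35.1% (31.7 to 38.7) in region 5 and 41.8% (34.7 to 49.2) in region 13, against 37.2% in region 10. The Krt16 share of both type I genes was higher than the 57.1% of region 10 in region 5, at 67.1% (63.0 to 70.9), in region 13, at 66.2% (59.2 to 72.7), and in region 14, at 85.2% (66.3 to 95.8) of 27 UMIs. The type II share of all members was lower than the 63.0% (62.5 to 63.5) of region 10 in region 5, at 56.8% (54.1 to 59.5), and in region 13, at 48.5% (43.4 to 53.5). Within region 5 the level of Krt6a was 92.3 CPM (84.2 to 101) and that of region 9, the osteocalcin region led by Bglap, 66.1 CPM (53.5 to 80.8). The part of free transcripts in these values was not tested.

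The amount of epidermis in a section was not controlled, so levels were also taken in spots with at least 1% of their UMIs in Krt5 and Krt14, called keratinocyte-bearing below. There were 53 in Blank, 51 in region 12 and 2 in region 11, and 62 in Col_nHA, all in region 10, with median depths of 11016 and 14045 UMIs. They held 39.5%, 48.7%, 53.0% and 16.5% of the Blank UMIs of Krt6a, Krt6b, Krt16 and Krt17, and 73.0%, 73.9%, 72.5% and 75.1% of the Col_nHA UMIs. Krt5 differed little between the sets, at 5993 and 6365 CPM, a ratio of 1.06 (1.02 to 1.11), and Krt14 stood at 9613 and 15217 CPM, a ratio of 1.58. Both genes define the sets, so their levels are set in part by that choice.

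In these spots every member was higher in Col_nHA, and the ratio of Krt17 was above that of Krt16, the reverse of their order in whole sections. In Blank Krt6a ranged from 0 to 33.8 UMIs per 10000 with a median of 4.54, and in Col_nHA from 30.6 to 239 with a median of 78.6. The ranges overlapped only between 30.6 and 33.8, and the summed spots gave 721 and 10348 CPM, a ratio of 14.4 (13.0 to 15.9). Krt6b ranged from 0 to 4.53 with a median of 0 in Blank and from 0.625 to 144 with a median of 57.3 in Col_nHA, a ratio of 66.0 (50.7 to 87.7) from 93.5 and 6174 CPM. Krt16 ranged from 0 to 68.9 with a median of 3.46 in Blank and from 2.90 to 139 with a median of 49.6 in Col_nHA. The summed spots gave 978 and 5691 CPM, a ratio of 5.82 (5.34 to 6.35). The highest Blank spot of Krt16 lay above the Col_nHA median, which was so for no other member. Krt17 ranged from 0 to 24.2 with a median of 3.13 in Blank and from 4.59 to 107 with a median of 30.5 in Col_nHA, a ratio of 8.01 (7.14 to 9.01) from 534 and 4277 CPM. Its ratio in these spots stood against 2.29 in whole sections, and they held 16.5% of its Blank UMIs. The background here was 10317 genes that reached 10 CPM in either set. Of these, 8.15% were higher in Col_nHA by 2-fold or more and 14.7% lower by as much, and 4 of 4 members were among the higher. All 4 reached 10 CPM in each set, and of the 8373 genes that did, 5.04% were higher and 7.51% lower by 2-fold.

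Per UMI of Krt5 and Krt14 the members kept their direction. Per 100 UMIs of that basal pair in keratinocyte-bearing spots, Krt6a stood at 4.62 in Blank and 47.9 in Col_nHA, a ratio of 10.4 (9.39 to 11.5). Krt6b stood at 0.599 and 28.6, a ratio of 47.7 (36.6 to 62.3). Krt16 stood at 6.26 and 26.4, a ratio of 4.21 (3.85 to 4.60), and Krt17 at 3.42 and 19.8, a ratio of 5.79 (5.15 to 6.51). The highest Blank spot had 19.6 Krt6a UMIs per 100 and the lowest Col_nHA spot 21.8, so the groups of spots did not overlap for Krt6a. For Krt6b, Krt16 and Krt17 they did. In spots with at least 0.25% of UMIs in the basal pair the ratio of Krt17 was 2.91, and in those with at least 2% the ratio of Krt6b was 108 (51.5 to 227) from 7 Blank UMIs. Over all spots the ratio of Krt17 per UMI of the basal pair was 2.35, close to its ratio in CPM.

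**Figure D5:**
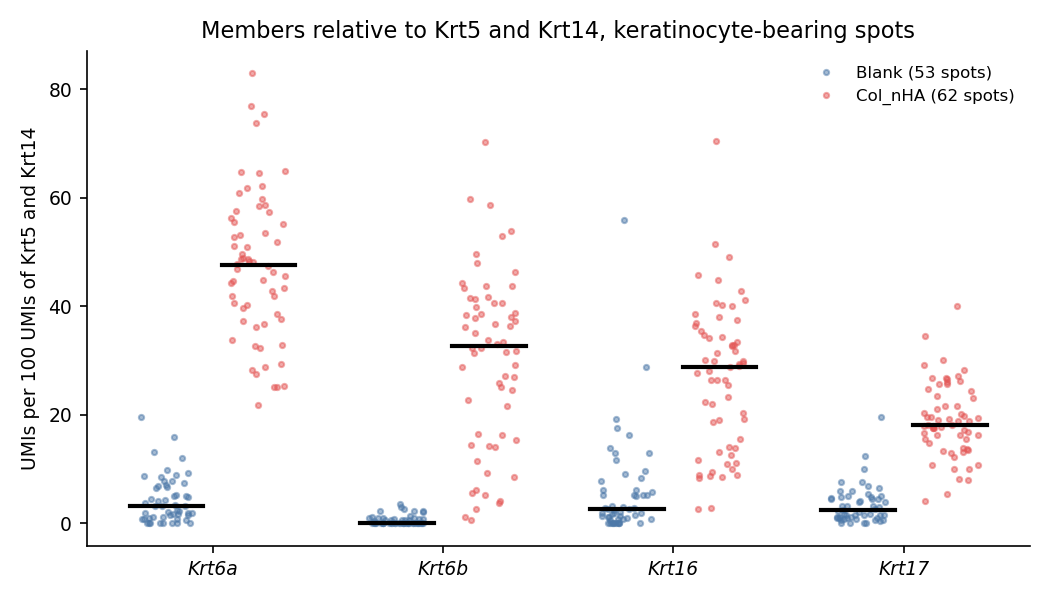
UMIs of each member per 100 UMIs of Krt5 and Krt14 in each keratinocyte-bearing spot of Blank (53 spots, blue) and Col_nHA (62 spots, red), with black lines at the medians. The Col_nHA medians are 47.6, 32.7, 28.9 and 18.1 for Krt6a, Krt6b, Krt16 and Krt17, and the Blank medians 3.11, 0, 2.56 and 2.46.

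The members followed the share of Krt5 and Krt14 in different ways in the sections. In spots with under 0.1% of UMIs in the basal pair Krt6a stood at 0.0387 UMIs per 10000 in Blank and 0.314 in Col_nHA. In spots with 0.1% to 1% it stood at 1.55 and 15.2, and at 1% or more at 7.21 and 103. Krt17 in the same bins stood at 0.107, 3.71 and 5.34 in Blank and at 0.130, 5.32 and 42.8 in Col_nHA. In the lowest and middle bins Krt17 therefore differed by less than 2-fold between the sections. The middle bin held 68.6% of the Blank UMIs of Krt17, from 411 spots, and 16.4% of the Col_nHA UMIs, from 153 spots.

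Levels of the members rose and fell together across spots in both sections. Across the 2471 Col_nHA spots the Pearson r of log2(counts per 10000 + 1) ran from 0.85 to 0.87 for the 6 pairs of members. Across the 2249 Blank spots it was 0.68 for Krt6a and Krt16, 0.58 for Krt6a and Krt17 and 0.50 for Krt16 and Krt17. For Krt6b in Blank it was 0.46 with Krt6a, 0.54 with Krt16 and 0.33 with Krt17. Blank held 4178 member UMIs and Col_nHA 36245, and the part of that in the r values was not tested. The shares of spots that held both genes of a pair did not follow the r values. Of spots with Krt6a, 69.1% in Blank and 42.3% in Col_nHA also held Krt17, and of spots with Krt16, 66.4% and 46.7% did. The genes most like the summed members in Blank were Krt5 and Lgals7 (r = 0.79 each), Krt14 and Sfn (0.78 each), Krt1, Perp, Trim29, Dsp, Dmkn and Krtdap (0.68 to 0.73). In Col_nHA they were Krt14 (0.88), Lgals7 (0.86), Krt5 (0.85), BC100530 (0.83), Ly6d, Sfn, Krtdap, Perp, Stfa3 and Stfa1 (0.78 to 0.81). The 2 lists shared 6 genes. Lgals7 encodes galectin-7, a lectin of stratified epithelia, and Sfn encodes 14-3-3 sigma of keratinocytes. The suprabasal keratin Krt1 and the desmosome gene Dsp were in the Blank list, and stefin A genes took places in the Col_nHA list. Taken gene by gene, a view chosen after the values were seen, the genes nearest Blank Krt17 were Krt5 (0.71), Lgals7 (0.70) and Krt14 (0.69). Krt15 (0.64), listed with the basal keratins, and Krt79 (0.63), listed with the sebaceous gland genes, ranked 7 and 8.

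Other genes of epidermis were described from lists, in whole sections and in keratinocyte-bearing spots. The lists too were chosen with earlier results of these data known, so their counts are a description and not a test. A gene that reached 10 CPM in 1 section only had to differ, so the counts are of genes that reached it in both, against the shares of such genes given above. The wound and stress list had 5 of 5 such genes 2-fold or more higher in the Col_nHA keratinocyte-bearing spots, with a median log2 ratio of 1.55 against -0.05 for all genes, and 3 more reached the minimum in Col_nHA only. Over whole sections none of 3 was at 2-fold, with a median of 0.25 against 0.02 for all genes, and 2 more reached the minimum in Col_nHA only. S100a8, which encodes an alarmin of injured epidermis and of neutrophils, had 51.0 CPM in Blank and 1868 in Col_nHA keratinocyte-bearing spots, a ratio of 36.6 (25.6 to 54.4). In whole sections its ratio was 1.70. Its partner S100a9 stood at 69.7 and 716 CPM. Sprr1b, a cornified envelope precursor, stood at 158 and 462 CPM, a ratio of 2.92 (2.33 to 3.69), and Sprr1a at 199 and 420 CPM.

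Markers of other cell types differed between the 2 sets of keratinocyte-bearing spots. The 7 neutrophil markers summed to 51.0 CPM in Blank and 33.8 in Col_nHA, with Ngp at 15 and 0 UMIs and Csf3r at 3 and 17. The macrophage markers summed to 1646 and 2640 CPM, but their median log2 ratio was -0.21. Lyz2 had a ratio of 2.42 and Cd68 1.85, whereas C1qa, C1qb, Adgre1 and Csf1r had ratios of 0.508, 0.675, 0.820 and 0.915. Of the osteoclast markers Acp5 had a ratio of 6.66 and Ctsk, the most abundant of them, 1.13. Fibroblast markers summed to 11731 and 6156 CPM, skeletal muscle markers to 2562 and 419 CPM, and adipocyte markers to 267 and 3.98 CPM. The part of these cells in the list values was not tested.

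The stefin A cluster, whose genes encode cysteine protease inhibitors, had 3 of 3 genes 2-fold or more higher in keratinocyte-bearing spots. The other 4 reached the minimum in Col_nHA only, and 3 of them had no Blank UMI. In whole sections 2 of 2 were higher, and Stfa1 reached the minimum in Col_nHA only. BC100530 stood at 1386 and 9091 CPM in keratinocyte-bearing spots, a ratio of 6.56 (6.11 to 7.06), Stfa3 at 401 and 3279 CPM, and Stfa1 at 158 and 1788 CPM. The summed cluster reached 6248 CPM in region 10, 1153 CPM in region 12 and 136 CPM in region 11. Stfa1, Stfa3 and BC100530 are among the leading genes of region 10, so the high sum there restates how that region was named. The genes of the cluster are near-identical copies, so the split among them is uncertain.

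Genes of keratinocyte adhesion and migration were higher in part, with 4 of 9 members 2-fold or more higher in keratinocyte-bearing spots and none lower, at a median of 0.28. In whole sections 2 of 6 were higher and 1 lower, at 0.53. Itga5, the fibronectin receptor subunit, stood at 47.6 and 170 CPM in keratinocyte-bearing spots, a ratio of 3.58 (2.39 to 5.54). The hemidesmosome genes Itga6 and Col17a1 had ratios of 0.774 (0.618 to 0.971) and 0.518 (0.444 to 0.606). Of the EGF family none of 3 was at 2-fold in keratinocyte-bearing spots, at a median of 0.09, nor was Egfr, the 1 such gene in whole sections. Of the ligand genes in keratinocyte-bearing spots, 1 reached the minimum in Col_nHA only and 1 in Blank only, and they went opposite ways. Hbegf had 3 UMIs in the Blank and 94 in the Col_nHA spots, a ratio of 18.3 (6.09 to 90.5). Ereg had 45 and 7 UMIs, a ratio of 0.0911 (0.0346 to 0.203). The receptor gene Egfr had a ratio of 1.07 (0.711 to 1.62).

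Keratinocyte transcription factor genes had no member at 2-fold among 9 in keratinocyte-bearing spots, at a median of 0.17, and in whole sections 1 of 7, Klf4, was lower, at a median of 0.05. Trp63, the master regulator of stratified epithelia, had a ratio of 1.50 (1.15 to 1.96) in keratinocyte-bearing spots, Junb 1.35 (1.11 to 1.65), Stat3 0.967 (0.761 to 1.23) and Klf4 0.743 (0.606 to 0.911). Cell division genes had 2 of 8 members higher and none lower there, at 0.61, and 3 of 8 in whole sections, at 0.91. Ube2c stood at 47.6 and 114 CPM, Pcna at 90.1 and 98.5 CPM, and Tpx2 had 8 and 20 UMIs.

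Suprabasal keratins and part of the cornified envelope genes went the other way. Suprabasal keratins had 2 of 3 members 2-fold or more lower in keratinocyte-bearing spots and none higher, at a median of -1.95, and 3 of 3 lower in whole sections, at -2.26. Krt77 reached the minimum in Blank only. Krt10 stood at 7307 CPM in the Blank spots and 187 in the Col_nHA spots, and Krt77, a keratin of the upper epidermis, had 2693 and 1 UMIs, a ratio of 0.000217 (5.5e-06 to 0.00121). Cornified envelope genes had 5 of 10 lower and 2 higher in keratinocyte-bearing spots, at -1.13, and Lor, the 1 gene at the minimum in both whole sections, was lower there too. Lor stood at 4203 and 382 CPM, the filaggrin gene Flg at 583 and 233 CPM, and Flg2 at 464 and 18.9 CPM. Rptn, 1 of the 2 higher genes, had 10 and 295 UMIs in these spots, a ratio of 17.3 (9.26 to 36.4). The desmosome list was nearly level in keratinocyte-bearing spots, with 1 of 9 higher and 1 lower at -0.17, and 4 of 6 lower in whole sections, at -1.13. In keratinocyte-bearing spots Dsp stood at 1309 and 1000 CPM, Perp at 1887 and 1676 CPM, and Dsg1a at 507 and 218 CPM.

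Of the basal keratins, 1 of 3 was lower in keratinocyte-bearing spots and none higher, at a median of 0.09, and neither of the genes at the minimum in both whole sections was at 2-fold, at -0.13. The lower one was Krt15, a keratin of quiescent basal cells and of the follicle bulge, at 1097 and 39.8 CPM in keratinocyte-bearing spots, a ratio of 0.0363 (0.0257 to 0.05). The other genes of the list, Krt5 and Krt14, define keratinocyte-bearing spots, so their levels there are set in part by that choice. Sebaceous gland genes were lower too, 4 of 4 in keratinocyte-bearing spots at -2.48. In whole sections Scd1 was lower and 4 more reached the minimum in Blank only. Scd1 had 626 CPM in Blank and 79.2 in Col_nHA, Krt79 at 87.9 and 9.10 CPM, and Cidea at 35.0 and 1.92 CPM in whole sections. Of the follicle regulators none of 2 was at 2-fold in whole sections, at -0.47. In keratinocyte-bearing spots Sox9, the 1 gene at the minimum in both, had a ratio of 1.12 (0.728 to 1.75), and 3 reached it in Blank only, among them Lgr5 with 18 and 4 UMIs and Gli2 with 7 and 4. Inner root sheath genes had no member at the minimum in whole sections and 1 at the minimum in both sets of keratinocyte-bearing spots, which was not at 2-fold, and no hair shaft, simple epithelial or mucosa keratin reached the minimum in either.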

How the data were processed

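Per the labels, the sections were frozen in OCT and used for spatial transcriptomics, though their extraction protocol is that of a droplet single-cell kit. The authors deposited unfiltered matrices of raw UMI counts. The submitters' processing notes name Space Ranger and build mm10, with no version, and the file headers name Cell Ranger 4. Gene IDs were matched to a RefSeq table on GRCm38.p6 and 30934 of 31053 to a gene name table. No image or spot position was used.

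The members and gene lists were chosen with earlier results of these data known. UMIs of spots were summed per section (30705849 in Blank, 40202268 in Col_nHA) and scaled to CPM. Intervals are exact 95% Poisson (CPM), conditional binomial (ratios) and Clopper-Pearson (shares), and for the ratio per Krt5 and Krt14 UMI a log-scale interval from the 4 counts. They cover counting error only. A count of 0 was set at a floor of 3 counts for ratios. Spots were thinned to 2000 UMIs for shares, or 500 where compared with barcodes below the minimum, of which 186 under 500 UMIs in each section were left out. No doublet caller was run, since a spot holds several cells. Regions came from Leiden clustering of both sections without batch integration (30 components of 2000 variable genes, 15 neighbours, resolution 0.6). Their leading genes have the largest ratio to other spots among genes with at least 50 CPM.

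Of 123 entries in 16 lists, Il36a, Il36g, Krt74 and Krt85 were not found. The text names all members, from each list up to 2 genes of highest level and 2 of widest log2 ratio, each with 10 CPM or more, and in each section the 10 genes most correlated with the summed members. Ereg and Rptn are named as well, as genes that went against others of their list. Alternatives are given in the closing section. Calculations were tested on simulated data. edgeR 4.0.16 in R 4.3.3 gave TMM factors alone. All else ran in Python 3.11.15 with scanpy 1.11.5, igraph 0.11.9, scipy 1.17.1, numpy 2.4.6, matplotlib 3.10.9 and pandas 2.3.3.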

Additional observations from a re-analysis of the deposited data

How the results depend on the processing

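No paired analysis was possible because each group holds 1 section. The ratios of all 4 members stayed above 1 under every alternative run, and no direction reversed. With every barcode the ratios were 9.50 for Krt6a, 5.06 for Krt16 and 2.16 for Krt17, with the UMI minimum at 50% of its value 9.39, 5.02 and 2.14, and with it raised 2-fold 11.9, 6.60 and 2.52. Averaging CPM over spots gave 6.95 for Krt6a, 38.8 for Krt6b, 3.88 for Krt16 and 1.68 for Krt17, so Krt17 fell short of 2-fold. In keratinocyte-bearing spots only, Krt6a stood at 14.4 and Krt17 at 8.01. Ratios with TMM factors, without mitochondrial, ribosomal protein and haemoglobin genes in the total, and per UMI of Krt5 and Krt14 stayed within the counting intervals. Genes at least 2-fold higher numbered 180, and 72 at a minimum of 50 CPM. Those at least 2-fold lower numbered 335, 520 at 5 CPM and 96 at 50 CPM.

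Per UMI of Krt5 and Krt14, spots with at least 0.25% of UMIs in that pair gave ratios of 5.11 for Krt16 and 2.91 for Krt17. No spot reached the planned 4%. At 2%, added after seeing the data, with 8 Blank and 22 Col_nHA spots, the ratios were 11.6 for Krt6a, 108 for Krt6b from 7 Blank UMIs, and 7.32 for Krt17. The region with most member UMIs held 56.7% of them in Blank and 86.8% at resolution 0.3, where fewer regions were made, and 58.9% at resolution 1.0. In Col_nHA it held 89.3%, 89.5% and 87.5%. Depth limits Krt6b in Blank most, with 113 UMIs. With 1 section per group, spread between animals, the material and the skin that each section took in cannot be told apart.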
